A study of Mus musculus with 16 samples.

Results

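Glycolysis, glucose transport and the fate of pyruvate were read through 38 genes of the 26239 genes in the authors' deposited tables. The genes were chosen by name, for their place in the pathway, with earlier results of these data known. Their counts set beside those of all genes are therefore a description. They are 2 glucose transporters, 3 genes for hexokinases and phosphoglucose isomerase, 3 phosphofructokinases, 4 bifunctional enzymes that set fructose-2,6-bisphosphate, 4 genes of the triose steps, 6 of lower glycolysis, 4 of lactate formation and export, 3 pyruvate dehydrogenase kinases, 3 subunits of the pyruvate dehydrogenase complex and 6 of the pentose phosphate pathway. All 38 were found by symbol and had a test in each of the 6 tables, at a mean RPKM (reads per kilobase of transcript, adjusted for sequencing depth) of at least 1.

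The cells were E14Tg2A, a mouse embryonic stem cell line whose genotype is labelled WT, and all groups come from this 1 line. The nickel groups received 100, 150 or 200 µM NiCl2 and were collected on day 4 or day 6, and the control groups of the same 2 days received none (0 µM). Every group, controls included, was kept in DMEM with serum and LIF, the cytokine that holds such cells undifferentiated. Cells were passaged every 2 days, and the nickel groups received fresh NiCl2 each time. Each of the 8 groups had 2 RNA sequencing libraries, 16 in all, and each nickel group was set against the control of its day, which makes 6 comparisons. The 3 comparisons of a day share their control libraries. Each table holds 1 RPKM per group, the authors' value over both libraries, so no spread between libraries can be shown. The labels do not state separate cultures for the libraries of a group. The p-values may therefore reflect no more than technical variation.

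Glucose enters cells through facilitative transporters of the SLC2A family, and is trapped as glucose 6-phosphate by hexokinase. It is then broken down by glycolysis to pyruvate, with a gain of ATP and NADH. Pyruvate is then either reduced to lactate by lactate dehydrogenase and exported by monocarboxylate transporters of the SLC16A family, or oxidised in mitochondria. The pyruvate dehydrogenase complex carries out that oxidation to acetyl-CoA, and pyruvate dehydrogenase kinases inhibit it. The pentose phosphate pathway branches off at glucose 6-phosphate and supplies NADPH and ribose. Mouse embryonic stem cells are known for rapid glycolysis, and several glycolytic genes are known targets of the hypoxia-inducible factors (HIF), which bind a short DNA core.

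The promoters of 7 genes are printed because the results turn on them: Slc2a1, Pfkl and Slc16a3, called higher with nickel in every comparison, and the isozyme pairs Ldha with Ldhb and Eno1 with Eno3, whose members were called in opposite directions. Slc2a3, also called in every comparison, is named only. Each sequence is the 250 bases before the gene start, 5′ to 3′ on the gene's own strand, from RefSeq on GRCm38.p6. Capitals mark the 5-base HIF core, ACGTG or GCGTG on that strand or CACGT or CACGC where the core lies on the other strand. The windows are chr4:119108495-119108744 (plus strand) for Slc2a1, chr10:78009808-78010057 (minus) for Pfkl, chr11:120948817-120949066 (plus) for Slc16a3, chr7:46846832-46847081 (plus) for Ldha, chr6:142507958-142508207 (minus) for Ldhb, chr4:150236974-150237223 (plus) for Eno1 and chr11:70656926-70657175 (plus) for Eno3.
Slc2a1: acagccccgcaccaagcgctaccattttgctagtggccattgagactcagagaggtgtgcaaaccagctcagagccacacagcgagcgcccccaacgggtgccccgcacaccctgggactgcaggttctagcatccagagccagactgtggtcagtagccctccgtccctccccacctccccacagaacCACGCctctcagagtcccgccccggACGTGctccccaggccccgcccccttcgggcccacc
Pfkl: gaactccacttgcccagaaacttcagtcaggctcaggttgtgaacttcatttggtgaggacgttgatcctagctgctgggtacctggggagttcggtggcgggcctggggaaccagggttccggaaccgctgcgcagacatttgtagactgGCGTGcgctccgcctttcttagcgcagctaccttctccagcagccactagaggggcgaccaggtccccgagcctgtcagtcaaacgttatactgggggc
Slc16a3: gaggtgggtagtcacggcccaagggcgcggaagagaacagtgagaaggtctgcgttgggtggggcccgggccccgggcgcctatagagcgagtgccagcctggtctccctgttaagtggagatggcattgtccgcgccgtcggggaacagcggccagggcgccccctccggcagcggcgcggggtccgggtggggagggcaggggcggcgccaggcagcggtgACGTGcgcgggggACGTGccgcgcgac
Ldha: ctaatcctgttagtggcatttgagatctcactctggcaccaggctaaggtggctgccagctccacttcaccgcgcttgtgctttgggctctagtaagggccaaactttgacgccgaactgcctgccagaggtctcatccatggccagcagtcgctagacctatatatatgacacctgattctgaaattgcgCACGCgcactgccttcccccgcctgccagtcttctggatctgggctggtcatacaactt
Ldhb: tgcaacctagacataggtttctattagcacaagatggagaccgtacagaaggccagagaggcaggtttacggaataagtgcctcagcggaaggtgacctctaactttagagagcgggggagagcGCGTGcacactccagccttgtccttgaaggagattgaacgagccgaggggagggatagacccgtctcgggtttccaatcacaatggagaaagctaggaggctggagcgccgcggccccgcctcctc
Eno1: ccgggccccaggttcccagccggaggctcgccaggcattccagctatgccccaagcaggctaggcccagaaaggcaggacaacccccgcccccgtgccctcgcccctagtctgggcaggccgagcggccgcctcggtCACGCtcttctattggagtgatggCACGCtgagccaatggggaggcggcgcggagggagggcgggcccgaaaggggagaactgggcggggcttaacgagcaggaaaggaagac
Eno3: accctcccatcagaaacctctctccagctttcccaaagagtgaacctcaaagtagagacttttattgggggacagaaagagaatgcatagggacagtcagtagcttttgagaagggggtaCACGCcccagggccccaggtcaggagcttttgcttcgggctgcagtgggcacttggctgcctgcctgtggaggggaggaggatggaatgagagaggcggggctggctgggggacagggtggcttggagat

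Library depths, estimated from the spacing of low RPKM values, lay between 34.1 and 76.8 megareads. All 8 markers of embryonic stem cells were detected in every group, and their summed RPKM in the authors' deposited tables was 6505 to 7559 in the nickel groups and 5974 to 6248 in the controls. The summed RPKM of 5 neural markers was 33 to 47.5 in nickel groups and 42.1 to 51.6 in controls, and that of 4 fibroblast markers was 6.14 to 10.9 in nickel groups and 9.73 to 13.5 in controls. The 5 primitive endoderm markers summed to 4.06 to 6.76 RPKM in nickel groups and 4.64 to 4.86 in controls. Markers of trophoblast (5 genes, 1.46 to 2.74 in nickel groups, 2.61 to 2.73 in controls) and of mesoderm and streak (5 genes, 0.877 to 1.94 in nickel groups, 0.878 to 1.22 in controls) stood near 0, with Cdx2 at 0 in the day 4 control and Elf5 at 0 in 4 nickel groups. The stem cell sum was higher in every nickel group than in both controls, and Dppa5a alone made up 3670 RPKM of it in the day 4 control of the authors' deposited tables. Of the 8 stem cell markers, 3, 5 and 3 were called higher at 100, 150 and 200 µM on day 4 and 4, 3 and 3 on day 6 (37.5 to 62.5%). Nanog, Klf4 and Tdgf1 were among them each time, and 1 was called lower, Esrrb at 150 µM on day 4. Of all genes tested, 0.576%, 3.44% and 4.14% were called higher in order of dose on day 4, and 1.62%, 2.36% and 4.99% on day 6. Each of the other marker lists also held calls, with at most 1 gene higher and 1 lower in any comparison. The part of these changes in the results that follow was not tested. Slc2a1, Tpi1, Pkm and Pdha1 overlap a gene on the opposite strand with a day 4 control RPKM of 2.32 to 2.71 in the authors' deposited tables, and Pfkp (RPKM 102) overlaps Pitrm1 at 48.6. The weaker members Pfkfb1 (RPKM 6.54), Pfkfb2 (4.58) and G6pdx (26.3) overlap Apex2 at 6.56, Yod1 at 2.03 and Ikbkg at 4.35 in the same way in the authors' deposited tables. Tkt overlaps a microRNA gene, Mir3076, listed at 0, on its own strand. The library kit keeps strand, and whether counting used it is not given in the sources used here. In bulk RNA, a change in the share of cells that express a gene and a change in RNA per cell cannot be told apart.

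Nickel raised both glucose transporter genes, 1 phosphofructokinase gene and 1 lactate exporter gene at every dose and on both days. None of the 2 hexokinase, 3 pyruvate dehydrogenase kinase and 6 pentose phosphate genes among the 38 was called in any comparison. Of all genes tested, 1.04 to 9.47% were called either way per comparison, so sets this small hold few calls whichever genes they contain. A gene was called where its adjusted p in the authors' deposited table, from DESeq2 per the submitters' processing notes, was under 0.05. Slc2a1, Slc2a3, Pfkl and Slc16a3 were called higher in all 6 comparisons, as were 42 of the 18195 genes tested in all 6. Another 5 members were called higher in at least 3 comparisons, Pfkfb3, Aldoa, Pgk1 and Eno1 in 4 each and Tpi1 in 3. Gapdh, Pkm and Ldha were called higher in 2 comparisons each. Ldhb was called lower in 4 comparisons, Eno3 in 2 and Pdha1 in 1. The other 23 members were called in none.

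On day 4 the members called higher numbered 4 at 100 µM, where 0.576% of all genes tested were called higher, 11 at 150 µM (3.44% of all genes) and 9 at 200 µM (4.14%). On day 6 they numbered 6 at 100 µM (1.62% of all genes), 11 at 150 µM (2.36%) and 8 at 200 µM (4.99%). The members called lower on day 4 numbered 1 at 100 µM (0.462% of all genes), 2 at 150 µM (3.32%) and 3 at 200 µM (3.77%). Those called lower on day 6 numbered 0 at 100 µM (1.21%), 1 at 150 µM (1.99%) and 0 at 200 µM (4.48%). Counted either way, 5, 13 and 12 members were called at 100, 150 and 200 µM on day 4 (1.04%, 6.75% and 7.92% of all genes) and 6, 12 and 8 on day 6 (2.83%, 4.34% and 9.47%). With a log2 fold change of at least 0.5 required as well, 2, 5 and 6 members were called on day 4 (0.653%, 3.19% and 5.72% of all genes) and 1, 3 and 5 on day 6 (1.21%, 2.64% and 7.3%). Each call outside Slc2a1, Slc2a3, Slc16a3, Pfkl, Pfkfb3 and Eno3 was smaller than that. Among genes with a mean RPKM of at least 50, 2.19%, 9.82% and 6.52% were called higher in order of dose on day 4, and 3.25%, 6.42% and 4.65% on day 6. The median log2 fold change of the 38 members was 0.045, 0.125 and 0.120 in order of dose on day 4, beside -0.003, 0.003 and 0.009 for all genes tested. On day 6 it was 0.064, 0.036 and 0.096, beside -0.003, -0.031 and 0.002. The median of the members thus stayed near 0 in every comparison, while single members reached log2 fold changes of up to 1.30 in the authors' deposited tables.

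**Figure D1:**
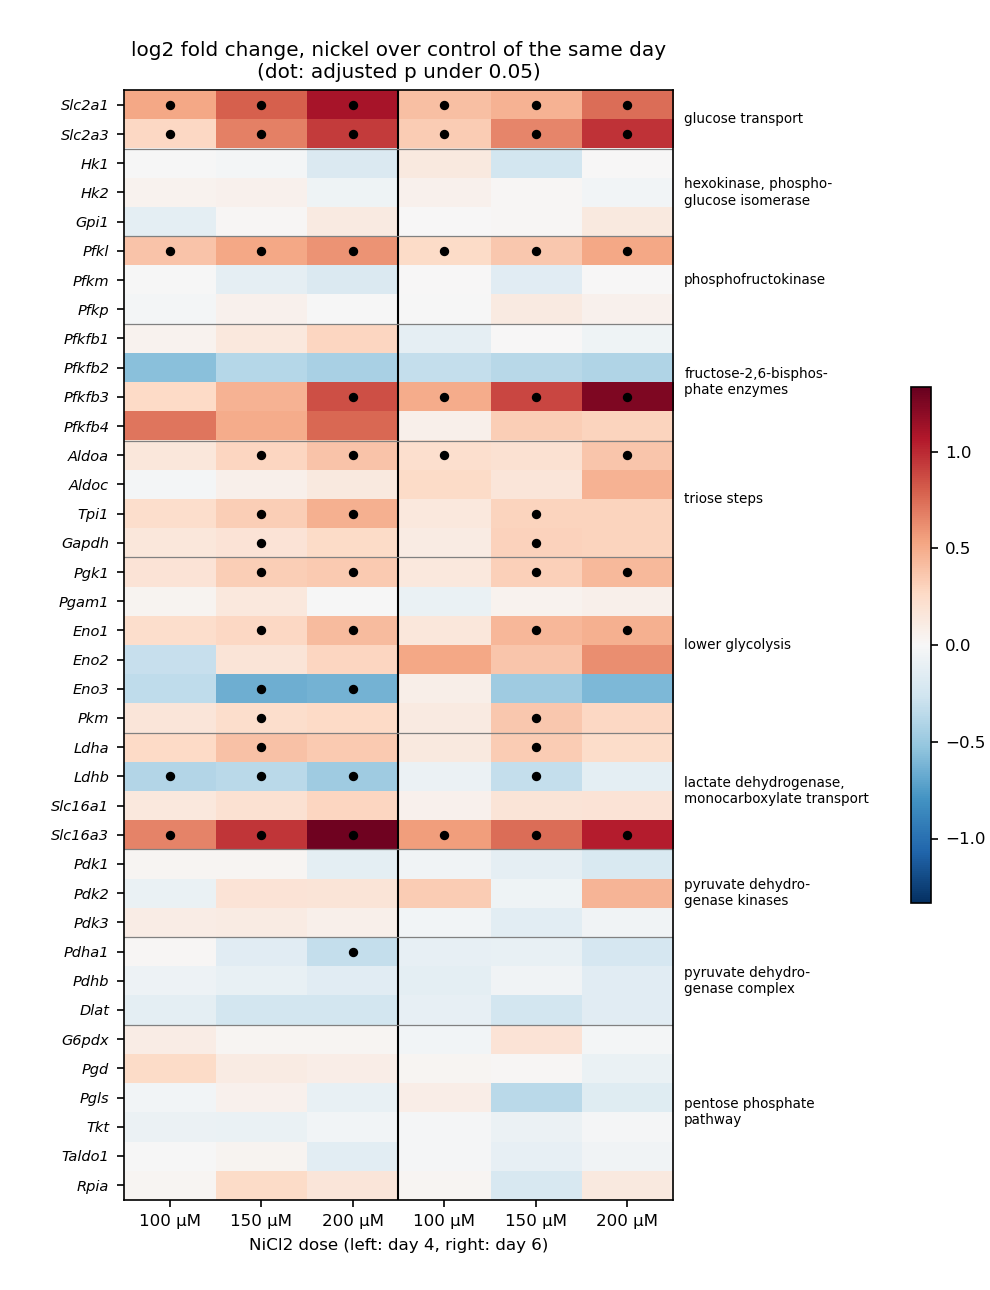
Log2 fold change of each of the 38 genes (rows, grouped by role) in nickel over the control of the same day, for 3 NiCl2 doses in µM on day 4 (left) and day 6 (right); red is higher with nickel, blue lower, and a dot marks an adjusted p under 0.05. Slc2a1, Slc2a3, Pfkl and Slc16a3 carry 6 dots each, and the hexokinase, pyruvate dehydrogenase kinase and pentose phosphate rows carry none.

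Both glucose transporter genes rose at every dose. Slc2a1 encodes GLUT1, the widespread basal glucose transporter, and its RPKM in the authors' deposited tables was 177, 247, 300 and 362 at 0, 100, 150 and 200 µM on day 4. On day 6 the 4 values were 200, 263, 258 and 329 in the authors' deposited tables, so every nickel group stood above both controls. The log2 fold change of Slc2a1 was 0.52 ± 0.07, 0.80 ± 0.05 and 1.10 ± 0.10 in order of dose on day 4 (adjusted p = 7.5e-11, 3.4e-47 and 6.6e-27), where the error after ± was computed from the fold change and p-value in the authors' deposited table. The authors' deposited tables for day 6 gave 0.40 ± 0.06, 0.46 ± 0.07 and 0.74 ± 0.10 for Slc2a1 (adjusted p = 2.4e-10, 2e-07 and 3.6e-10). At 200 µM the transcript was thus 2.14-fold higher with nickel on day 4 and 1.67-fold higher on day 6.

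Slc2a3, at chr6:122727809-122742745, encodes GLUT3, a transporter with a high affinity for glucose, and was the more abundant of the pair per length in every group. Its RPKM in the authors' deposited tables was 321, 381, 496 and 589 in order of dose on day 4 and 317, 399, 469 and 610 on day 6. The 2 days thus gave nearly the same dose series. The log2 fold change of Slc2a3 in the authors' deposited tables was 0.28 ± 0.06, 0.67 ± 0.04 and 0.93 ± 0.09 in order of dose on day 4 and 0.34 ± 0.05, 0.65 ± 0.07 and 0.96 ± 0.10 on day 6, with adjusted p between 2e-47 and 0.00075. The summed RPKM of the pair was 498, 628, 796 and 951 in order of dose on day 4 and 517, 662, 727 and 939 on day 6. Slc2a1 made up 35 to 39.7% of it in every group. The levels of both transporters were therefore higher with nickel while their proportions stayed within a narrow range.

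The first steps after uptake had no called member, beside 1.04 to 9.47% of all genes tested called either way per comparison. Hk2, which encodes the inducible hexokinase bound to mitochondria, had RPKM 69.9, 70.4, 71.1 and 64.3 in order of dose on day 4 and 72.9, 75.4, 69.7 and 69.8 on day 6 in the authors' deposited tables. Its log2 fold change at 200 µM was -0.06 on day 4 (95% interval -0.27 to 0.16) and -0.04 on day 6 (-0.26 to 0.18), so a rise of the size seen for Slc2a1 lies outside both intervals. Hk1, the hexokinase of most tissues, ran from -0.24 to 0.13 on the log2 fold change scale of the authors' deposited tables over the 6 comparisons, and Gpi1, phosphoglucose isomerase, from -0.13 to 0.13.

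Phosphofructokinase, the main control point of glycolysis, is a tetramer built from 3 isozymes, and of their genes Pfkl alone was called. Pfkl, the liver type, had RPKM 89.3, 113, 125 and 130 in order of dose on day 4 and 97.9, 117, 118 and 138 on day 6 in the authors' deposited tables. Every nickel group again stood above both controls. Its log2 fold change in those deposited tables was 0.38 ± 0.08, 0.52 ± 0.06 and 0.60 ± 0.11 in order of dose on day 4 (adjusted p = 0.00091, 1.8e-16 and 1.7e-06) and 0.26 ± 0.06, 0.36 ± 0.08 and 0.52 ± 0.11 on day 6 (adjusted p = 0.00059, 0.00055 and 5.1e-05). Pfkp, the platelet type, stood at RPKM 97.2 to 104 over all 8 groups in the authors' deposited tables, with log2 fold changes between -0.03 and 0.12. Pfkm, the muscle type, stood at RPKM 17.3 to 20.6, with log2 fold changes between -0.19 and 0.01 in the authors' deposited tables. The difference between isozymes was not tested, since it needs values per library.

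The bifunctional enzymes, which make and degrade fructose-2,6-bisphosphate, the strongest activator of phosphofructokinase, differed among themselves. Pfkfb3, at chr2:11471431-11502090, encodes the form with the highest kinase activity, and its RPKM in the authors' deposited tables was 2.97, 3.45, 3.94 and 5.15 in order of dose on day 4 and 3.23, 4.53, 5.76 and 7.54 on day 6. It was called higher at 200 µM on day 4 (log2 fold change 0.86 ± 0.20, adjusted p = 0.00076) and at all 3 doses on day 6 (0.49 ± 0.13, 0.89 ± 0.17 and 1.25 ± 0.15, adjusted p = 0.0071, 2.1e-05 and 1.2e-13) in the authors' deposited tables. Its 2.37-fold increase at 200 µM on day 6 exceeded that of every other member in that comparison. Pfkfb2, the heart form, had negative log2 fold changes in all 6 comparisons of the authors' deposited tables, from -0.56 to -0.32, and passed in none, with a lowest adjusted p of 0.066. Pfkfb1 lay between -0.12 and 0.29, and Pfkfb4, the weakest member at RPKM 1.05 to 1.71, between 0.07 and 0.77 in the authors' deposited tables, with no call for either. Pfkfb3 and Pfkfb4 are weakly expressed beside the enzymes of the pathway itself, which stand at up to RPKM 1960.

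Among the triose steps, Aldoa, Tpi1 and Gapdh were called higher in some comparisons and Aldoc, the brain aldolase, in none. Aldoa, at chr7:126795234-126799178, encodes aldolase A, which splits fructose 1,6-bisphosphate, and its RPKM in the authors' deposited tables was 904, 978, 1080 and 1130 in order of dose on day 4 and 1080, 1250, 1170 and 1380 on day 6. It rose by 0.29 ± 0.06 and 0.38 ± 0.10 on the log2 scale at 150 and 200 µM on day 4 and by 0.22 ± 0.05 and 0.37 ± 0.10 at 100 and 200 µM on day 6, with adjusted p between 0.00012 and 0.0052 in the authors' deposited tables. At 150 µM on day 6 it had 0.20 ± 0.07 and an adjusted p of 0.054 in the authors' deposited table. Tpi1, triosephosphate isomerase, was called at 150 and 200 µM on day 4 (0.33 ± 0.06 and 0.47 ± 0.11) and at 150 µM on day 6 (0.30 ± 0.10) in the authors' deposited tables, at RPKM 242 to 346 over the groups. Gapdh, glyceraldehyde-3-phosphate dehydrogenase and often used as a reference transcript, was called at 150 µM on both days in the authors' deposited tables (0.18 ± 0.06, adjusted p = 0.044, on day 4 and 0.31 ± 0.09, adjusted p = 0.011, on day 6). All 6 of its log2 fold changes were positive, from 0.11 to 0.31, at RPKM 1530 to 1960 in the authors' deposited tables. Centred on the median gene, the day 4 call of Gapdh ended (0.17, adjusted p = 0.062).

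In lower glycolysis the abundant genes Pgk1, Eno1 and Pkm were called higher, Eno3 was called lower, and Pgam1 and Eno2 were not called. Eno1 encodes the ubiquitous alpha enolase, and its RPKM was 528, 604, 624 and 676 in order of dose on day 4 and 548, 607, 690 and 746 on day 6 in the authors' deposited tables. It rose by 0.28 ± 0.06 and 0.42 ± 0.12 on the log2 scale at 150 and 200 µM on day 4 and by 0.44 ± 0.10 and 0.47 ± 0.12 on day 6 (adjusted p = 0.00026, 0.0078, 0.00083 and 0.0018 in the authors' deposited tables). Eno1b, a near-identical copy of Eno1 elsewhere in the genome, was called higher in 5 comparisons, and how reads that match both were assigned is not given in the sources used here. Eno3, the muscle beta enolase, had RPKM 10.2, 7.94, 6.38 and 6.32 in order of dose on day 4 and 6.97, 7.14, 4.74 and 4.52 on day 6 in the authors' deposited tables. It fell by 0.65 ± 0.19 and 0.63 ± 0.22 on the log2 scale at 150 and 200 µM on day 4 (adjusted p = 0.013 and 0.044), and at 200 µM on day 6 its log2 fold change in the authors' deposited table was -0.60 ± 0.23 (adjusted p = 0.072). Centred on the median gene, Eno3 at 200 µM on day 4 had a log2 fold change of -0.64, of the same size, at an adjusted p of 0.051. Neither call of Eno3 passes an adjusted p of 0.01. Eno2, the neuronal enolase, was at RPKM 2.65 to 4.37. Eno1 made up at least 97.4% of the summed RPKM of Eno1, Eno2 and Eno3 in every group. That sum leaves out Eno1b, which had RPKM 66.3 in the day 4 control and 103 at 200 µM on day 6.

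Pgk1, phosphoglycerate kinase, which makes the first ATP of the pathway, was called higher at 150 and 200 µM on both days in the authors' deposited tables, by 0.33 ± 0.07 and 0.35 ± 0.11 on day 4 and by 0.32 ± 0.09 and 0.43 ± 0.11 on day 6 on the log2 scale. Pkm, pyruvate kinase, which makes the last, was called at 150 µM on both days in the authors' deposited tables (0.23 ± 0.05 on day 4 and 0.36 ± 0.09 on day 6), at RPKM 1390 to 1690. At 200 µM the log2 fold change of Pkm was 0.27 ± 0.11 on day 4 and 0.28 ± 0.12 on day 6 in the authors' deposited tables, of like size but with adjusted p of 0.12 and 0.1. Pgam1, phosphoglycerate mutase, stood between -0.09 and 0.14 on that scale in the authors' deposited tables. The errors of the comparisons differed too: the median implied standard error over the 38 members was 0.070 at 150 µM and 0.119 at 200 µM on day 4, and 0.098 at 150 µM and 0.124 at 200 µM on day 6. With log2 RPKM ratios in place of fold changes and the same errors, Pgk1 at 200 µM on day 4 lost its call (0.28, adjusted p = 0.093).

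Lactate formation and export held the largest rise and the most frequent fall. Slc16a3 encodes MCT4, the monocarboxylate transporter typical of cells that export lactate, and its RPKM in the authors' deposited tables was 27.1, 41.7, 51 and 63.5 in order of dose on day 4 and 31.3, 45.9, 49.2 and 64.1 on day 6. No nickel group came down to the level of either control. Its log2 fold change in those deposited tables was 0.66 ± 0.11, 0.95 ± 0.08 and 1.30 ± 0.12 in order of dose on day 4 (adjusted p = 1.5e-06, 1.7e-26 and 3e-22) and 0.56 ± 0.07, 0.74 ± 0.10 and 1.05 ± 0.11 on day 6 (adjusted p = 6.5e-13, 1.5e-11 and 9.6e-18). The 2.45-fold increase at 200 µM on day 4 was the highest of all 228 pairs of member and comparison. Slc16a1, which encodes MCT1, a transporter of the same family that carries lactate either way, had RPKM 29.7 to 34.8 over the groups of the authors' deposited tables. Its log2 fold changes were positive in all 6 comparisons, from 0.06 to 0.29, and none passed, with a lowest adjusted p of 0.052 in the authors' deposited tables.

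The lactate dehydrogenase genes moved in opposite directions. Ldha, whose A subunit favours the reduction of pyruvate, had RPKM 736, 862, 941 and 897 in order of dose on day 4 and 771, 839, 913 and 893 on day 6 in the authors' deposited tables. It was called higher at 150 µM on both days, by 0.39 ± 0.06 on day 4 and 0.34 ± 0.09 on day 6 on the log2 scale (adjusted p = 7e-10 and 0.0068 in the authors' deposited tables). Ldhb, whose B subunit favours the oxidation of lactate, had RPKM 245, 182, 185 and 170 in order of dose on day 4 and 201, 189, 151 and 182 on day 6 in the authors' deposited tables. It fell by 0.39 ± 0.08, 0.36 ± 0.07 and 0.47 ± 0.15 on the log2 scale in order of dose on day 4 (adjusted p = 0.00034, 6.6e-06 and 0.027) and by 0.32 ± 0.09 at 150 µM on day 6 (adjusted p = 0.009 in the authors' deposited tables). At 200 µM on day 6 the log2 fold change of Ldhb was -0.13 with an implied error of 0.41, against 0.15 at that dose on day 4, and its 95% interval of -0.93 to 0.66 holds the day 4 value. The Ldhb controls themselves differed, with a day 6 RPKM 0.82 times the day 4 RPKM.

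The genes of pyruvate entry into mitochondria showed 1 call among 6 members over all 6 comparisons. In each comparison, 1.04 to 9.47% of all genes tested were called either way. Pdha1, at chrX:160122219-160138430, encodes the catalytic alpha subunit of pyruvate dehydrogenase, and its RPKM in the authors' deposited tables was 83, 81.9, 72.8 and 63.7 in order of dose on day 4 and 84.2, 77.8, 73.9 and 71.1 on day 6. It fell by 0.32 ± 0.10 on the log2 scale at 200 µM on day 4 (adjusted p = 0.021), and at 200 µM on day 6 it had -0.22 ± 0.11 (adjusted p = 0.19) in the authors' deposited tables. Pdhb, the beta subunit, lay between -0.15 and -0.05 and Dlat, the acetyltransferase core, between -0.25 and -0.11 in the authors' deposited tables. Both were negative in all 6 comparisons and called in none. Pdk1, the kinase of the complex that hypoxia is known to induce, had RPKM 44.2, 43.8, 44 and 38.6 in order of dose on day 4 and 44.4, 42.6, 38.6 and 38.2 on day 6 in the authors' deposited tables. Its log2 fold change at 200 µM was -0.13 on day 4 (95% interval -0.33 to 0.06) and -0.20 on day 6 (-0.41 to 0.01) in the authors' deposited tables, so neither interval holds a rise above 0.06. Pdk2 (RPKM 3.65 to 5.5) and Pdk3 (13.8 to 16.2) ran from -0.09 to 0.45 and from -0.14 to 0.11 on the log2 fold change scale of the authors' deposited tables.

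None of the 6 pentose phosphate genes was called at any dose or day, beside 1.04 to 9.47% of all genes tested per comparison. Tkt, transketolase of the non-oxidative branch, had RPKM 140, 129, 128 and 131 in order of dose on day 4 and 135, 133, 120 and 132 on day 6 in the authors' deposited tables. G6pdx, the X-linked glucose 6-phosphate dehydrogenase that opens the pathway, had log2 fold changes between -0.04 and 0.18, and Pgd, which makes the second NADPH, between -0.09 and 0.26 in the authors' deposited tables. Taldo1, transaldolase, ran from -0.14 to 0.04, Pgls, the lactonase, from -0.36 to 0.09 and Rpia, ribose 5-phosphate isomerase, from -0.21 to 0.25 on the same scale of the authors' deposited tables. The weakly expressed Rpia (RPKM 4.52 to 5.95) had 95% intervals as wide as -0.37 to 0.69 at 200 µM on day 4, so its change there is known only to within that range. Tkt at 200 µM had the narrower intervals of -0.24 to 0.15 on day 4 and -0.23 to 0.20 on day 6.

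Several members stood in order of dose. Taking the authors' RPKM at 0, 100, 150 and 200 µM, 8 of 38 members stood in strictly rising order on both days (21.1%), against 3.13% of 11382 genes with a mean RPKM of at least 1 in all comparisons. They were Slc2a3, Pfkl, Pfkfb3, Tpi1, Gapdh, Eno1, Slc16a1 and Slc16a3. Taken by day, the order was rising for 12 members on day 4 (31.6%, against 10.1% of those genes) and for 10 on day 6 (26.3%, against 7.28%). Pdha1 and Pdhb stood in strictly falling order on both days (5.26% of members, against 7.13% of those genes). Which genes stand in order depends on the scale. By log2 fold change on day 6, Pdha1 had -0.11, -0.10 and -0.22 and Pdhb -0.13, -0.05 and -0.15, so neither fell at each dose. Gapdh had 0.11, 0.31 and 0.30 on that day and did not rise at each dose. Slc2a1, in rising RPKM order on day 4 only, had rising fold changes on day 6 (0.40, 0.46 and 0.74). From 100 to 200 µM the RPKM ratio was 1.47 for Slc2a1, 1.55 for Slc2a3 and 1.52 for Slc16a3 on day 4, and 1.25, 1.53 and 1.4 on day 6. For Ldha it was 1.04 on day 4 and 1.06 on day 6, and for Pfkl 1.15 and 1.18. The doses of a day share a control and have no value per library, so the order is a description and carries no test.

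**Figure D2:**
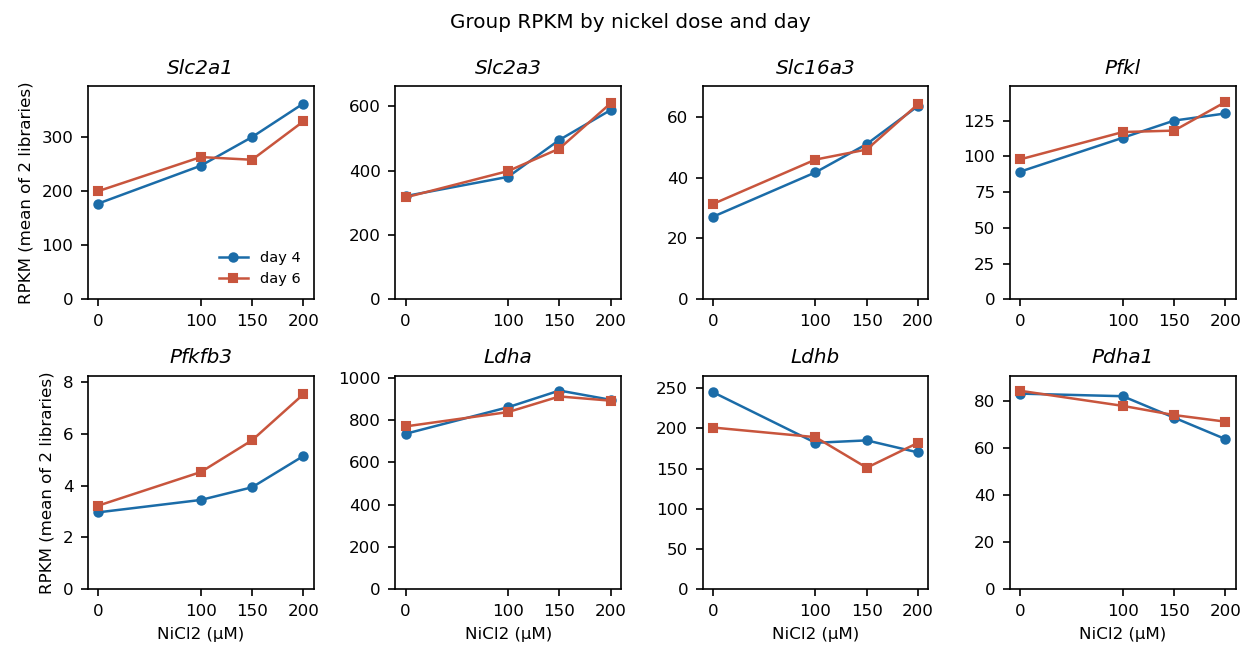
Group RPKM (y axes, from 0, a scale per gene) of 8 genes against NiCl2 dose in µM (x axes), with day 4 in blue circles and day 6 in red squares; each point is the authors' value over 2 libraries, and no error can be drawn. Slc2a1, Slc2a3 and Slc16a3 stand highest at 200 µM on both days, Ldha is highest at 150 µM, and Pdha1 is lowest at 200 µM.

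The calls differed within enzyme families, and with them the make-up of each family per length. Pfkl made up 42.2, 49.1, 50.5 and 53.2% of the summed phosphofructokinase RPKM in order of dose on day 4 and 44.9, 49.6, 49.7 and 52.8% on day 6. Pfkl ranked below Pfkp in both controls and above it in every nickel group. Ldhb made up 25, 17.4, 16.4 and 15.9% of the summed RPKM of Ldha and Ldhb in order of dose on day 4 and 20.7, 18.4, 14.2 and 16.9% on day 6. Slc16a3 made up 47.7, 56.7, 60.6 and 64.6% of the sum with Slc16a1 on day 4 and 51.2, 59.8, 61 and 65.8% on day 6. Pfkfb3 made up 19.6, 23.6, 24.6 and 28.9% of the summed RPKM of the 4 bifunctional enzymes on day 4 and 20.1, 27.9, 33.1 and 38.5% on day 6. These shares come from the authors' RPKM and carry no error, since each is a ratio of values per group.

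**Figure D3:**
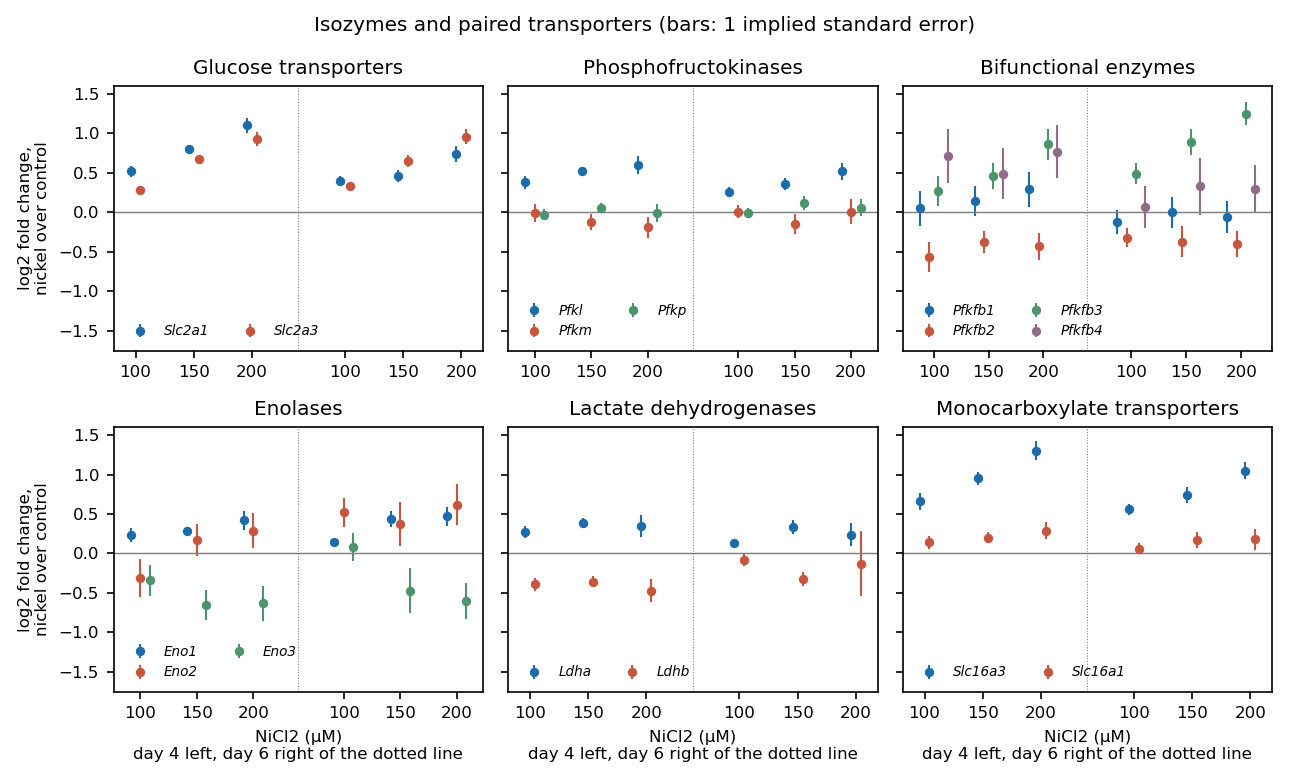
Log2 fold change in nickel over control (y axis) of the genes of 6 families against NiCl2 dose in µM, with day 4 left and day 6 right of the dotted line; points are the authors' values and bars are 1 implied standard error either way. The points of Slc2a1, Slc2a3, Pfkl, Pfkfb3, Pfkfb4, Eno1, Ldha, Slc16a1 and Slc16a3 lie above 0 at every dose on both days. Those of Pfkfb2 and Ldhb lie below 0 at every dose on both days. Some bars of Pfkfb4, Slc16a1 and Ldhb cross 0.

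Day 4 and day 6 have separate libraries, so the difference between days could be tested at each dose. A two-sided z test was run on both log2 fold changes and their implied errors, adjusted by Benjamini-Hochberg over all genes. The test takes the errors of both days as independent. The labels do not settle this, since the replicate letters A and B recur on both days. No member passed at any dose, and of all genes 7 of 18734 passed at 100 µM, 14 of 18784 at 150 µM and 9 of 18889 at 200 µM (0.0374%, 0.0745% and 0.0476%). At an unadjusted p under 0.05 in this z test there were 560 of 18734 genes at 100 µM, 591 of 18784 at 150 µM and 369 of 18889 at 200 µM. Among the 38 members there were 2 at 100 µM, 1 at 150 µM and 1 at 200 µM. Slc2a1 had the lowest unadjusted p, with day 6 minus day 4 at -0.34 ± 0.09 on the log2 scale at 150 µM (adjusted p = 0.2 in this z test). At 200 µM its difference was -0.36 ± 0.14 (adjusted p = 1 in this z test). The day 6 control of Slc2a1 had 1.13 times the RPKM of the day 4 control. For Pfkfb3 the differences were 0.22 ± 0.23, 0.43 ± 0.23 and 0.39 ± 0.25 with rising dose. Those for Slc2a3 were 0.06 ± 0.08, -0.01 ± 0.08 and 0.03 ± 0.13, whose 95% intervals reach no further than -0.24 and 0.29. The remaining members with an unadjusted p under 0.05 were Ldhb (0.31 ± 0.11, adjusted p = 1) and Eno2 (0.83 ± 0.30, adjusted p = 1), both at 100 µM.

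Genes of neighbouring steps outside the 38 were read from lists of the same pathways. The counts below stand beside 1.04 to 9.47% of all genes tested called either way per comparison. Among 8 further pentose phosphate genes, Prps2 was called lower in 5 comparisons and Prps1 higher in 4, both encoding phosphoribosyl pyrophosphate synthetase, which starts nucleotide synthesis from ribose 5-phosphate. Prps2 had RPKM 35.6, 30.9, 28.2 and 21.4 in order of dose on day 4 and 31.3, 25, 20.4 and 19.8 on day 6, and Prps1 had 91.7, 106, 112 and 106 on day 4 and 85.7, 97.7, 101 and 116 on day 6 in the authors' deposited tables. At 200 µM on day 6 the log2 fold change was -0.64 ± 0.12 for Prps2 (adjusted p = 7.7e-06) and 0.46 ± 0.12 for Prps1 (adjusted p = 0.0022) in the authors' deposited table. Tktl2, a transketolase-like gene at RPKM 0.0825 to 0.694, was called lower in 3. Among 18 genes of gluconeogenesis, glycogen and glycerol phosphate, Gys1, glycogen synthase, was called higher in 4 comparisons and Pgm1, a phosphoglucomutase, in 3. Fbp2, a fructose bisphosphatase, and Gpd1, glycerol 3-phosphate dehydrogenase, were called higher in 2 each, Pgm2 higher in 1 and Gpd1l lower in 1. The calls higher in this list numbered 0, 4 and 3 in order of dose on day 4 and 0, 1 and 4 on day 6, of 17 or 18 tested. That was 0, 22.2 and 16.7% of the list on day 4, beside 0.576, 3.44 and 4.14% of all genes tested. On day 6 it was 0, 5.56 and 22.2%, beside 1.62, 2.36 and 4.99%. Gys1 rose by 0.55 ± 0.14 on day 4 and 0.50 ± 0.14 on day 6 at 200 µM, and Pgm1 by 0.51 ± 0.14 and 0.50 ± 0.13, on the log2 scale of the authors' deposited tables. None of 11 further genes of pyruvate entry was called in any comparison. Of 16 genes of the tricarboxylic acid cycle, 0 were called at 100 µM on either day and at 150 µM on day 6, and 1 was called in each of the other 3 comparisons: Suclg2, a subunit of succinyl-CoA ligase, higher at 150 µM on day 4, and Idh3a, a subunit of isocitrate dehydrogenase, lower at 200 µM on both days (-0.33 ± 0.11 on day 4 and -0.39 ± 0.12 on day 6 in the authors' deposited tables). Of 27 other transporters, hexokinases and isozymes, 25 or 26 were tested per comparison, with 3 calls. They were Bsg, the chaperone of MCT1 and MCT4, higher at 200 µM on day 4 (0.33 ± 0.10 in the authors' deposited table), and Ldhc, the testis lactate dehydrogenase at RPKM 0.538 to 2.29, lower at 200 µM on both days. The genes Fbp2, Gpd1, Pgm2, Gpd1l, Suclg2, Idh3a, Bsg and Ldhc are named after their values were seen.

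The HIF core was then counted in the promoter windows, of which 37 of the 38 members had one, and 35 of these began at the gene start of the authors' tables. The motif was ACGTG or GCGTG on either strand, and ACGTG also lies inside the E box CACGTG, as it did in 2 members. At least 1 core lay in 29 of 37 windows (78.4%), beside 38.6% of all 32851 windows in RefSeq and 57% of 11860 windows of genes with a mean RPKM of at least 1. Of the 11 windows of members called higher at least once 9 held a core (81.8%), and of the 26 windows of members never called higher 20 did (76.9%). Slc2a1 and Slc16a3 each held 2 cores close to the start, Pfkl held 1, and both members of each isozyme pair called in opposite directions held at least 1. A match describes the letters of a window, and binding was not measured here.

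**Figure D4:**
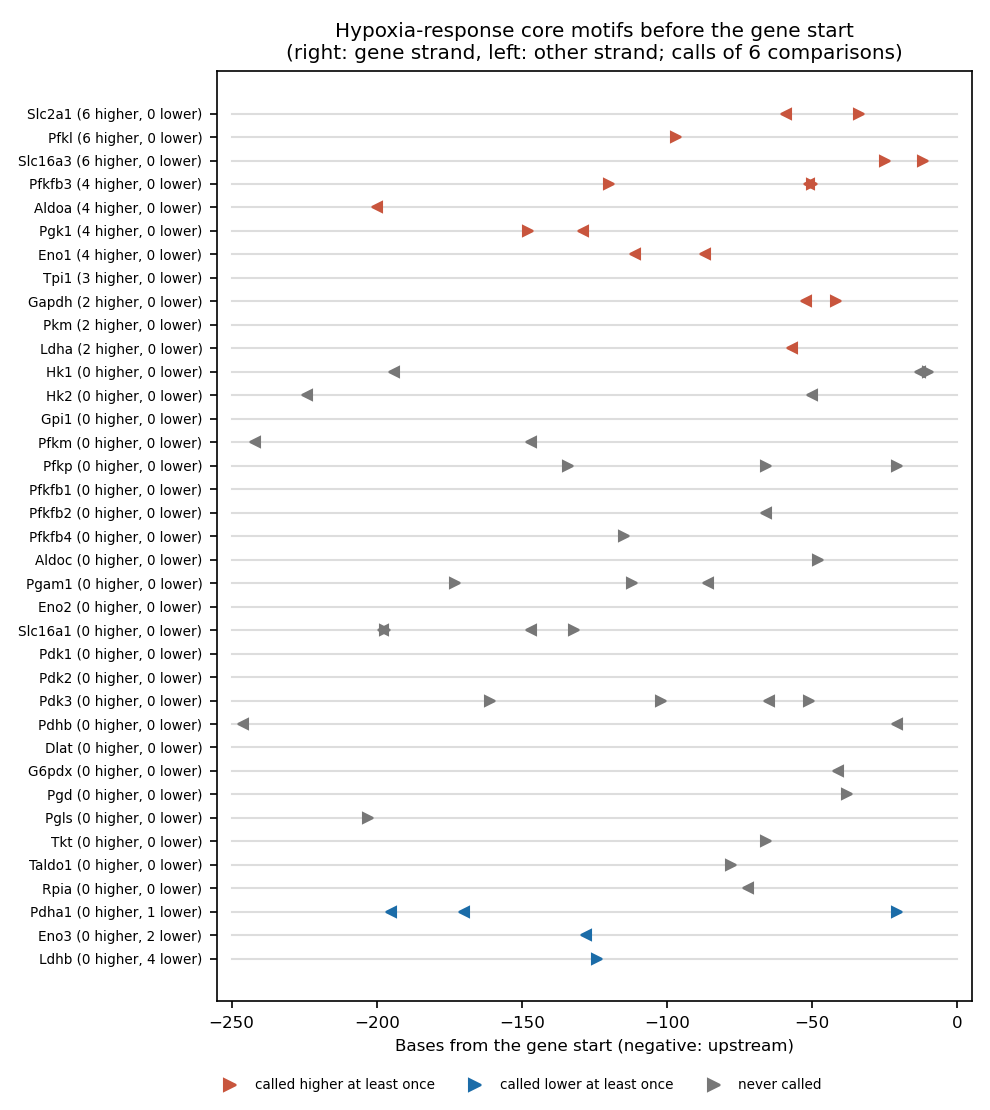
Positions of HIF cores in the 250 bases before the gene start (x axis, bases, negative upstream) for the 37 genes with a window (rows, with their numbers of calls); right-pointing marks lie on the gene's strand and left-pointing marks on the other, red for genes called higher at least once, blue for lower and grey for never called. Cores occur in rows of all 3 colours.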

How the data were processed

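RNA sequencing libraries from E14Tg2A cells were made with a stranded mRNA kit, per the labels' protocols, and STAR, DESeq2 and GRCm38 were used, per the submitters' processing notes. Versions, settings and annotation were not given in the sources used here. The authors deposited 6 tables, 1 per dose and day, with an RPKM value for each of both groups, per the file headers. The log2 fold change of nickel over control is also the authors' value, per the file headers. The authors' p-value and adjusted p-value stand beside it, per the file headers. RPKM carries 3 significant digits, and gene starts are given here counted from 1.

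From these values, a standard error was computed for each gene from the log2 fold change and p-value taken as normal, with 95% intervals from it. A gene whose fold change was exactly 0 on the log2 scale with p = 1 counted as untested. Calls use the authors' adjusted p at 0.05; no new test per gene against control was possible, because the tables hold no value per library. The difference between days was a two-sided z test, adjusted over all genes. Python 3.11.15, numpy 2.4.6, pandas 2.3.3, scipy 1.17.1 and matplotlib 3.10.9 were used. Of the computations, only the test between days was run on simulated data. Those data were drawn with the normal errors that the test assumes, so that assumption was not checked. Depths of the 16 libraries were estimated from the spacing of low RPKM values in 2161 genes with a single exon. The lowest steps were taken as single reads, and the group RPKM as the mean of both libraries. Neither assumption was checked. Some steps rest on few genes, 2 for a library at 100 µM on day 4 and 6 for a library at 150 µM on day 6. The estimates run from 34.1 to 76.8 megareads and cannot be tied to a replicate letter.

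The 38 genes and the lists of other pathway genes and of cell markers were chosen with earlier results of these data known. All members were read in all 6 comparisons, levels in every group were given for members with a called fold over 1.5 and for at least 1 member per role, and other pathway genes were named if called in at least 3 comparisons in 1 direction, apart from 8 named as exceptions. Alternatives were a stricter threshold, other sets of genes for the adjustment, a fold minimum, centring on the median gene and RPKM ratios in place of the fold change. Promoter windows came from RefSeq; protein sequences were not used here. The authors' subset sheets were not used.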

Additional observations from a re-analysis of the deposited data

How the results depend on the processing

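The number of members called was 5, 13 and 12 at 100, 150 and 200 µM on day 4, and 6, 12 and 8 at these doses on day 6. It stayed within 1.5 times of these counts at an adjusted p under 0.01, with Benjamini-Hochberg adjustment over all genes or over genes with a mean RPKM of at least 1, and with fold changes centred on the median gene. At an adjusted p under 0.01 the calls lower on day 4 numbered 1 at 150 µM, against 2 at 0.05, and 0 at 200 µM, against 3 at 0.05. This ends every call of Eno3, the call of Pdha1 and the call of Ldhb at 200 µM on day 4, while the other calls of Ldhb stay. With a log2 fold change of at least 0.5 required as well, it was 2, 5 and 6 on day 4 and 1, 3 and 5 on day 6, since most calls in the glycolytic enzymes are smaller than that. With log2 RPKM ratios (pseudocount 0.1) and the same errors, 6 of 228 values lost a call higher and 2 gained a call lower, Pdha1 and Dlat at 150 µM on day 4. The 6 include Gapdh at 150 µM on day 4 (ratio 0.13, adjusted p = 0.22) and Pgk1 at 200 µM on day 4 (ratio 0.28, adjusted p = 0.093). Over expressed genes these ratios lie below the fold changes by a median of 0.006 (100 µM, day 6) to 0.088 (150 µM, day 6), though not for every gene. With centring, Gapdh at 150 µM on day 4 and Eno3 at 200 µM on day 4 lost theirs. No direction of a call turned. The median over the members at 150 µM on day 6 was 0.036 from fold changes and -0.053 from RPKM ratios, beside -0.005 and -0.092 for all expressed genes. No member passed the test between days under any alternative run. No paired analysis was possible because the tables hold 1 value per group and no column per replicate, and leaving out a replicate could not be run for the same reason. With 2 libraries per group, errors rest on what the authors' tool shares across genes, and weakly expressed members such as Pfkfb4 and Rpia carry wide intervals.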
